A study of Homo sapiens with 12 samples.

Results

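The 10 genes described here are negative feedback regulators of mitogen-activated protein (MAP) kinase signalling: the MAP kinase phosphatases DUSP1, DUSP4, DUSP5, DUSP6, DUSP10 and DUSP16, the Sprouty genes SPRY1, SPRY2 and SPRY4, and SPRED1. They were taken by gene symbol, and all 10 were found among the 26468 gene symbols kept. Each was represented by the transcript model, on chromosomes 1 to 22, X or Y, with the most fragments over the 12 libraries. RNA was measured in PC3 cells, a line from a human prostate adenocarcinoma, and in MG63 cells, a line from a human osteosarcoma; the labels give both as wild type. Each line was transfected by lipid with 10 nM of siControl (a non-targeting siRNA), of siLARP4A (against LARP4A, listed under the symbol LARP4) or of siLARP4B (against LARP4B), and RNA was taken 72 h later and selected for poly(A) tails. The 6 groups held 2 libraries each, which the series calls biological replicates, without saying whether they were separate cultures. The p-values therefore measure the spread between these libraries, pooled over the 6 groups. The labels give no siRNA sequence and do not say whether a target was hit by 1 siRNA or by a pool, so the siControl group controls for transfection but not for off-target effects of a sequence. Both LARP4 proteins bind RNA and the poly(A)-binding protein, and the series asks what each contributes to the behaviour of these tumour lines.

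Growth factors that bind receptor tyrosine kinases activate RAS, then the RAF, MEK and ERK kinases in turn. Stress and cytokines act more through the parallel MAP kinases JNK and p38. Active ERK induces transcription of its own brakes. The DUSP proteins of this family are phosphatases that remove phosphate from threonine and tyrosine in the activation loop of a MAP kinase and so switch it off. Sprouty proteins and SPRED1 act further upstream, between receptor and RAF; SPRED1 brings the RAS inhibitor neurofibromin (NF1) to the membrane. Transcript levels of these genes are widely read as a report on ERK activity. Kinase activity and protein were not measured here.

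Library totals ranged from 16950119 to 24864977 fragments. LARP4 RNA was left at 12.7% of siControl in PC3 and 25.8% in MG63 after siLARP4A, and LARP4B RNA at 18.4% and 30.9% after siLARP4B, so every library carried the loss its label states. LARP4 RNA was higher after siLARP4B in MG63, at 134.4% of siControl, and did not pass in PC3 (-0.03 on the log2 scale). The epithelial markers KRT8, KRT18, KRT19, EPCAM and CDH1 summed to 796 to 1040 FPKM in PC3 libraries and to 54.6 to 72.2 in MG63. FPKM is the authors' fragment count scaled to the size of the library and the length of the transcript. The mesenchymal and osteoblast lineage markers VIM, COL1A1, COL1A2, SPARC, RUNX2 and THY1 summed to 402 to 514 FPKM in PC3 and to 4560 to 5200 in MG63. The summed epithelial markers in PC3 were 852 to 868 FPKM with siControl, 993 to 1040 with siLARP4A and 796 to 822 with siLARP4B, and in MG63 71.5 to 72.2, 64.6 to 67.4 and 54.6 to 56.2. Members of that list did not move together: after siLARP4A in PC3, KRT8 (0.53) and KRT18 (0.27) rose and EPCAM fell (-0.37). The mesenchymal sum in PC3 was 473 to 496 FPKM with siControl, 480 to 514 with siLARP4A and 402 in both siLARP4B libraries, and in MG63 4920 to 4950, 4970 to 5200 and 4560 to 4960. VIM made up most of it in PC3 (472 FPKM on average with siControl). Here too members moved apart. After siLARP4A in MG63, COL1A1 (745 to 1320 FPKM on average), COL1A2 (466 to 647) and RUNX2 rose and VIM fell (2970 to 2430). After siLARP4B in PC3, COL1A1 and SPARC rose and COL1A2 and VIM fell. The endothelial markers PECAM1, VWF and CDH5 summed to at most 0.333 FPKM in PC3, and in MG63 to 3.77 to 4.08 with siControl, 5.97 to 6.83 with siLARP4A and 2.25 to 2.63 with siLARP4B. Of 4 leukocyte markers 3 were among the gene symbols kept, with CD3E at 0 in every library. They summed to at most 0.522 FPKM in PC3. In MG63 the sums were 2.02 to 2.53 with siControl, 2.33 to 2.67 with siLARP4A and 0.991 to 1.21 with siLARP4B, where CD14 fell (-1.03). The part of these marker lists in the results below was not tested. In bulk RNA, fewer cells with a transcript and less of it per cell cannot be told apart.

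With siControl, PC3 cells carried more feedback RNA than MG63 for 7 of the 10 genes and less for 2, at an adjusted p under 0.05 in edgeR's quasi-likelihood test; of all 15686 genes tested, 82.0% differed between the lines, 41.3% higher and 40.7% lower in PC3. DUSP4, a nuclear phosphatase of ERK and JNK, differed most, with 39.0 and 38.7 FPKM in the PC3 siControl libraries and 0.796 and 0.726 in those of MG63. PC3 was thus higher by 5.49 in log2 (adjusted p 7.4e-24 in edgeR, SE 0.0836), or 44.9-fold. DUSP5, a nuclear phosphatase specific for ERK, was 2.74 higher in PC3 on the log2 scale and DUSP6, its cytoplasmic counterpart, was 2.00 higher. SPRED1 was 1.22 higher, DUSP16 0.77, and SPRY1 and SPRY2 0.40 each. DUSP1 (-0.75) and DUSP10 (-0.60) were lower in PC3 than in MG63; without MG63 siControl replicate 2 DUSP10 had an edgeR adjusted p of 0.051, and on log2(FPKM + 1) limma gave -0.23. SPRY4 did not pass (-0.13, edgeR adjusted p 0.081), at 12.5 and 11.8 FPKM in PC3 and 11.02 and 12.2 in MG63. It passed, and was lower in PC3, in a fit of the siControl libraries alone (-0.13). Over the alternatives its difference ran from -0.19, without MG63 siControl replicate 1, to 0.06, so the direction depended on the setting.

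The order of levels per kilobase also differed between the lines. In PC3 with siControl, DUSP6 (39.3 FPKM on average) and DUSP4 (38.9) were highest and did not differ beyond their spread. DUSP5 (33.2), SPRY2 (22.9 and 23.1 in its libraries), SPRY1 (14.6) and DUSP1 (13.0) followed. SPRY4 (12.1) and SPRED1 (11.7) overlapped each other, and DUSP16 (3.44) and DUSP10 (1.04) were lowest. In MG63 with siControl, DUSP1 led (19.2 FPKM), followed by SPRY2 (15.4), SPRY4 (11.6), SPRY1 (9.77) and DUSP6 (8.64). SPRED1 (4.44) and DUSP5 (4.36) overlapped each other in MG63, and DUSP16 (1.77), DUSP10 (1.39) and DUSP4 (0.761) were lowest. Among the 6 phosphatases, the highest in MG63 was DUSP1, a nuclear phosphatase of p38, JNK and ERK, and the highest in PC3 were DUSP6, DUSP4 and DUSP5.

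**Figure D1:**
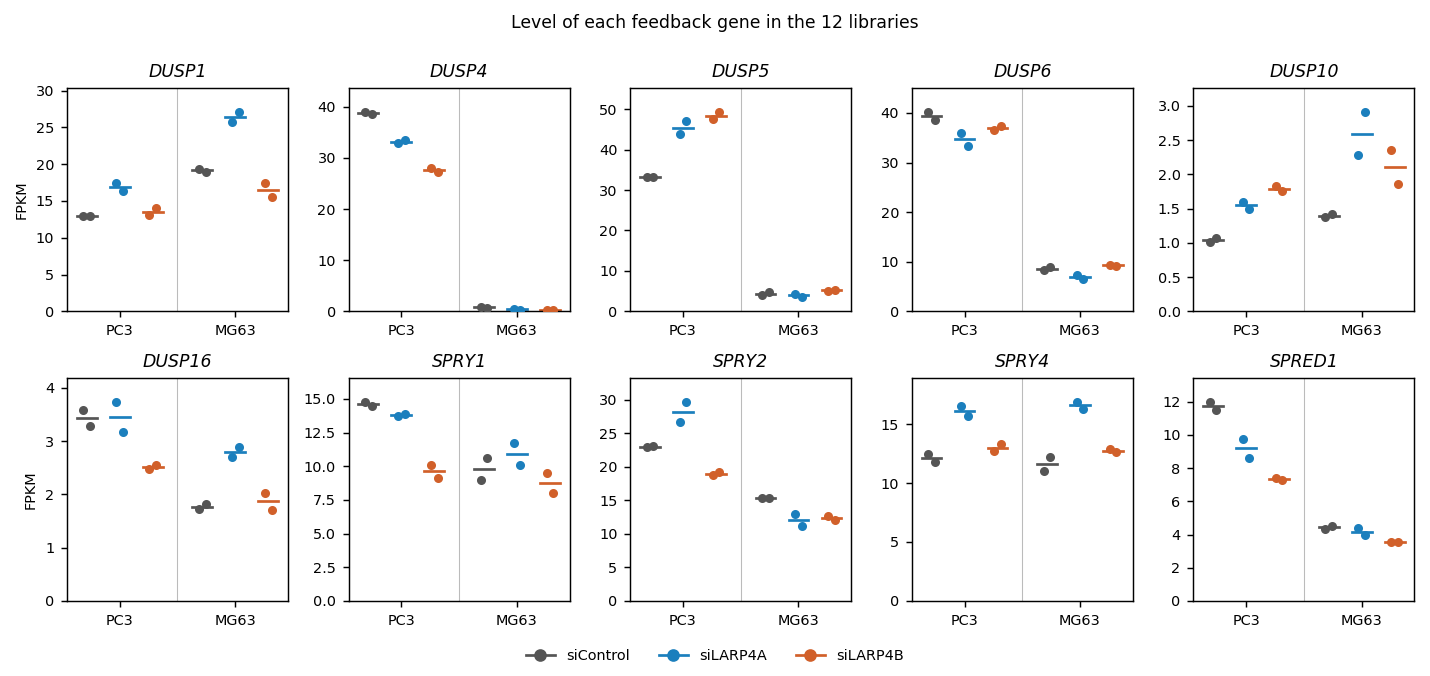
Level of each of the 10 genes in FPKM (vertical axis, from 0) in the 12 libraries; each point is a library, each short line the mean of 2 libraries, and colours mark the siRNA. DUSP4 lies between 27.3 and 39.0 FPKM in PC3 and under 1 FPKM in MG63, and DUSP10 is lowest with siControl in both lines.

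The upstream sequence is shown for 4 of the genes that passed in the same direction in both lines after a given siRNA in the comparisons below. DUSP1 and SPRY4 rose and DUSP6 fell after siLARP4A, and SPRED1 fell after siLARP4B. DUSP4 and DUSP10 (after either siRNA) and SPRY2 (after siLARP4B) also did so and are not shown. RefSeq start sites (GRCh38.p14) were found for 8 of the 10 genes; DUSP4 and DUSP5 are the others. Each sequence is the 250 bases before the start site, 5′ to 3′ on the gene's strand. Capitals mark matches on either strand to TGACG, a short form of the cAMP response element, which lies within its palindromic form TGACGTCA. The windows are chr5:172771196-172771445 for DUSP1, chr5:142324248-142324497 for SPRY4 and chr12:89352502-89352751 for DUSP6, all on the minus strand, and chr15:38252586-38252835 for SPRED1 on the plus strand. The start sites are those of the transcript models used, except for SPRY4, whose model starts 774 bases further upstream.
DUSP1: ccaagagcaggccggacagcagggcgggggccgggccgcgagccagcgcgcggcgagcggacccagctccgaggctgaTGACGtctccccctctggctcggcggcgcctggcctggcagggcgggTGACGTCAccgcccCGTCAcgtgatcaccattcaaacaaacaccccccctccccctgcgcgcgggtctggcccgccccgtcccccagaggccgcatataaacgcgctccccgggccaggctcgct
SPRY4: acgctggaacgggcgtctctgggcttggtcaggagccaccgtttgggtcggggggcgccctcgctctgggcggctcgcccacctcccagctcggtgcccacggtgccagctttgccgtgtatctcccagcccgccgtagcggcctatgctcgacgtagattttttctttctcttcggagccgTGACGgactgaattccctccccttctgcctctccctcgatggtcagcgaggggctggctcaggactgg
DUSP6: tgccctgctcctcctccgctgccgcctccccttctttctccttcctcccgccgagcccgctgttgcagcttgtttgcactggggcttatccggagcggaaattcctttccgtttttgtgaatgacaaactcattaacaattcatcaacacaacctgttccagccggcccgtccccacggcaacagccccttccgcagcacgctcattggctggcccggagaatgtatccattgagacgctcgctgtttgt
SPRED1: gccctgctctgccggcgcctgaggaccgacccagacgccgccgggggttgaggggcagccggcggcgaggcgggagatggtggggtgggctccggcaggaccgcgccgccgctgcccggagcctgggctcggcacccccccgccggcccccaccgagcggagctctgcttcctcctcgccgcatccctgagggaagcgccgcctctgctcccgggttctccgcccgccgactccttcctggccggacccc

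DUSP1 held 4 matches to TGACG, counted on both strands, of which 2 are the overlapping strands of 1 TGACGTCA; SPRY4 held 1, and DUSP6 and SPRED1 held none. Of the 35116 upstream windows of this length in the table, 21.2% held TGACG and 1.6% held TGACGTCA. The 8 genes have 12 start sites and so 12 windows, of which 3 held TGACG (1 each of DUSP1, SPRY4 and SPRY2), none held the AP-1 motif TGANTCA (6.6% of all windows) and 1, of SPRY1, held the ETS motif CCGGAAG (8.5%). A match describes the letters in the window and is not a measured binding site.

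The knockdown libraries of a line were next compared with its siControl libraries, to ask how the feedback genes responded to loss of either LARP4 transcript. DUSP4 and DUSP10 were the genes that passed in the same direction in all 4 of these comparisons: DUSP4 was lower and DUSP10 higher. Most changes were small, and only DUSP4 in MG63 changed at least 2-fold. After siLARP4A in PC3, 5 genes rose (DUSP1, DUSP5, DUSP10, SPRY2 and SPRY4) and 3 fell (DUSP4, DUSP6 and SPRED1), where 36.4% of all genes tested passed, 19.5% higher and 16.9% lower. After siLARP4B in PC3, 2 rose (DUSP5 and DUSP10) and 5 fell (DUSP4, DUSP16, SPRY1, SPRY2 and SPRED1), against a background of 45.7%, with 24.8% higher and 20.9% lower. After siLARP4A in MG63, 4 rose (DUSP1, DUSP10, DUSP16 and SPRY4) and 3 fell (DUSP4, DUSP6 and SPRY2), against 26.8%, with 13.3% higher and 13.5% lower. After siLARP4B in MG63, 1 rose (DUSP10) and 4 fell (DUSP1, DUSP4, SPRY2 and SPRED1), against 34.9%, with 18.0% higher and 16.9% lower. Without MG63 siControl replicate 1, 3 passed in that last comparison, all of them lower, and DUSP1 and DUSP10 did not. The median log2 difference of the 10 genes was 0.17, -0.19, 0.03 and -0.02 in these comparisons, and that of all genes tested lay between 0 and 0.04. In PC3, whether more of all genes tested rose or fell against siControl depended on the setting. The 2 comparisons within a line share their siControl libraries.

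**Figure D2:**
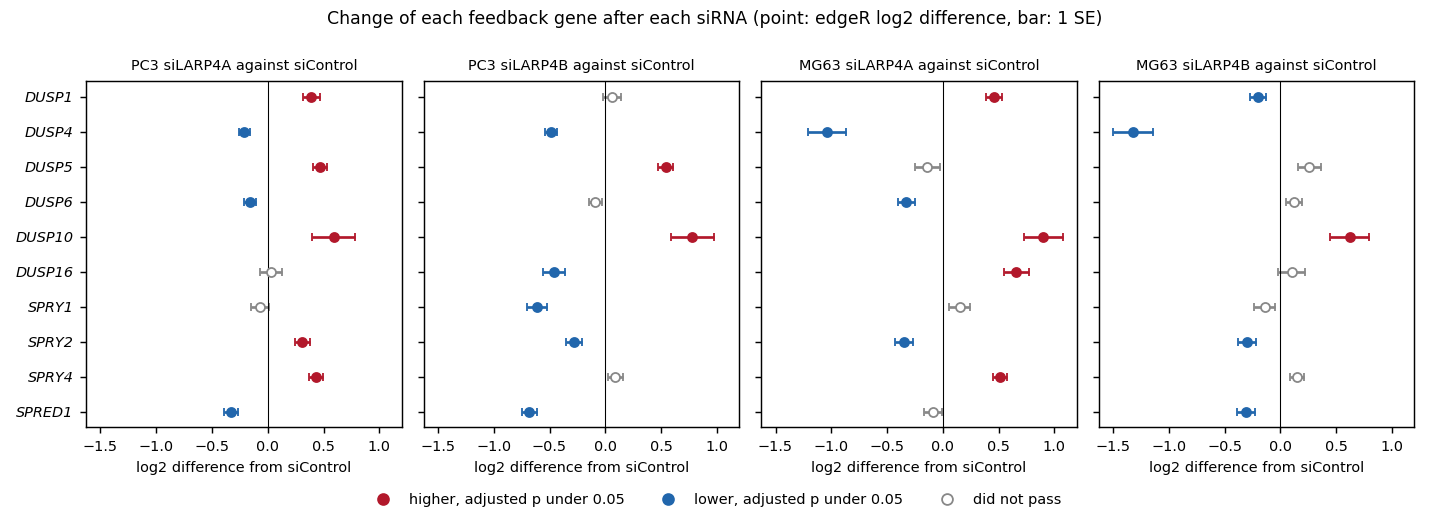
Log2 difference from siControl (horizontal axis) of the 10 genes in the 4 comparisons; points are edgeR estimates, bars 1 SE, and filled colours mark genes past an adjusted p of 0.05. DUSP4 lies left of 0 and DUSP10 right of 0 in every panel, while SPRY2 lies right of 0 for siLARP4A in PC3 (0.31) and left of it in the other panels.

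DUSP1 (chromosome 5, 172768096 to 172771195, minus strand) is an early response gene whose phosphatase acts on p38, JNK and ERK in the nucleus. In PC3 it had 13.0 and 13.0 FPKM with siControl, 17.4 and 16.3 with siLARP4A, and 13.1 and 13.98 with siLARP4B. In MG63 the libraries had 19.3 and 19.0 FPKM with siControl, 25.8 and 27.1 with siLARP4A, and 17.4 and 15.5 with siLARP4B. The siLARP4A libraries were thus the highest in both lines, with no overlap with another group. The rise after siLARP4A was 0.39 on the log2 scale in PC3 (adjusted p 0.00027 in edgeR, SE 0.0755) and 0.46 in MG63 (adjusted p 3.0e-05 in edgeR, SE 0.0701). After siLARP4B it did not pass in PC3 (0.06) and fell in MG63 (-0.20, edgeR adjusted p 0.035). That fall was -0.12 without MG63 siLARP4B replicate 2, and it also missed the threshold with DESeq2 (adjusted p 0.11), without a filter (edgeR adjusted p 0.088) and without either MG63 siControl library (0.16 and 0.099).

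DUSP4 (chromosome 8, 29333064 to 29350684, minus strand) was high in PC3 and low in MG63, and fell after both siRNAs in both lines. In PC3 it had 39.0 and 38.7 FPKM with siControl, 32.9 and 33.5 with siLARP4A and 27.98 and 27.3 with siLARP4B, so the 3 groups did not overlap. The log2 differences from siControl were -0.21 (adjusted p 0.0033 in edgeR, SE 0.0524) and -0.49 (adjusted p 1.1e-07 in edgeR, SE 0.0533). In MG63 it rested on few fragments: 80 and 77 with siControl, 43 and 31 with siLARP4A, and 32 and 32 with siLARP4B. The MG63 log2 differences were -1.04 (adjusted p 9.5e-05 in edgeR, SE 0.173) and -1.32 (adjusted p 5.2e-06 in edgeR, SE 0.179), or 2.05-fold and 2.5-fold lower. On log2(FPKM + 1), where the added 1 outweighs such low levels, limma gave -0.36 and -0.44 for MG63, both past the threshold. In PC3 after siLARP4A, limma on log2(FPKM + 0.1) gave an adjusted p of 0.20.

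DUSP5 (chromosome 10, 110497907 to 110511531, plus strand) rose in PC3 after either siRNA. Its level there was 33.3 and 33.1 FPKM with siControl, 43.8 and 47.1 with siLARP4A, and 47.5 and 49.3 with siLARP4B, so that it became the most abundant of the 10 genes in both knockdown groups. The log2 rises were 0.47 (adjusted p 4.5e-06 in edgeR, SE 0.0633) and 0.54 (adjusted p 3.9e-07 in edgeR, SE 0.0637). In MG63 it did not pass after siLARP4A (-0.14, edgeR adjusted p 0.38) or siLARP4B (0.26, edgeR adjusted p 0.066), at 4.06 and 4.66 FPKM with siControl, 4.32 and 3.59 with siLARP4A, and 4.93 and 5.38 with siLARP4B. Without an expression filter the MG63 siLARP4B value was 0.28 with an edgeR adjusted p of 0.046.

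DUSP6 (chromosome 12, 89347237 to 89352501, minus strand) encodes the cytoplasmic ERK phosphatase. It fell after siLARP4A in PC3 (-0.16, adjusted p 0.031 in edgeR, SE 0.0569) and in MG63 (-0.33, adjusted p 0.0021 in edgeR, SE 0.0763). The PC3 libraries had 40.2 and 38.5 FPKM with siControl, 36.0 and 33.4 with siLARP4A, and 36.6 and 37.4 with siLARP4B. In MG63 they had 8.43 and 8.84 FPKM with siControl, 7.26 and 6.45 with siLARP4A, and 9.32 and 9.23 with siLARP4B. In FPKM the siLARP4A libraries were lowest in both lines; on the scaled log2 values, PC3 siLARP4A replicate 1 and PC3 siLARP4B replicate 1 were level (-0.023 and -0.024 from the mean of the line). The PC3 call was lost without PC3 siControl replicate 1 (-0.12, edgeR adjusted p 0.24), without PC3 siLARP4A replicate 2 (-0.11, 0.17) and with limma on log2(FPKM + 0.1) (adjusted p 0.053), and the MG63 call without MG63 siLARP4A replicate 2 (-0.24, edgeR adjusted p 0.072). After siLARP4B it did not pass in PC3 (-0.09, edgeR adjusted p 0.20), but did so at -0.14 in each of the 4 fits that left out an MG63 siLARP4A or siLARP4B library; in MG63 it did not pass (0.12, edgeR adjusted p 0.22).

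DUSP10 and DUSP16 encode phosphatases that act on JNK and p38 rather than ERK, and both were among the least abundant of the genes. DUSP10 (chromosome 1, 221701424 to 221742089, minus strand) had 47 and 53 fragments with siControl in PC3, 103 and 73 with siLARP4A and 91 and 77 with siLARP4B. In MG63 it had 64 and 70 with siControl, 103 and 140 with siLARP4A, and 119 and 91 with siLARP4B. Its level in FPKM was 1.01 and 1.07, 1.60 and 1.49, and 1.83 and 1.75 in PC3, and 1.37 and 1.42, 2.28 and 2.91, and 2.35 and 1.86 in MG63, so every knockdown library exceeded the siControl libraries of its line. The rises in PC3 were 0.59 after siLARP4A (adjusted p 0.021 in edgeR, SE 0.194) and 0.78 after siLARP4B (adjusted p 0.0024 in edgeR, SE 0.195). Those in MG63 were 0.90 (adjusted p 0.00043 in edgeR, SE 0.173) and 0.62 (adjusted p 0.0094 in edgeR, SE 0.177). At this depth the calls after siLARP4A in PC3 and siLARP4B in MG63 depend on single libraries: the first was lost with DESeq2 (adjusted p 0.088), without PC3 siControl replicate 1 or 2 (edgeR adjusted p 0.10 and 0.071) and without PC3 siLARP4A replicate 1 (0.12), the other without MG63 siControl replicate 1 (0.062) and without MG63 siLARP4B replicate 1 (0.44 on the log2 scale, edgeR adjusted p 0.14). On log2(FPKM + 1), limma gave 0.32, 0.45, 0.58 and 0.37 for the 4 rises in the order given.

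DUSP16 (chromosome 12, 12473282 to 12562863, minus strand) responded differently in each line. In PC3 the values were 3.59 and 3.29 FPKM with siControl, 3.74 and 3.17 with siLARP4A, and 2.47 and 2.56 with siLARP4B. In MG63 they were 1.73 and 1.81 with siControl, 2.71 and 2.88 with siLARP4A, and 2.03 and 1.71 with siLARP4B. It fell after siLARP4B in PC3 (-0.46, adjusted p 0.00088 in edgeR, SE 0.102) and rose by 0.66 after siLARP4A in MG63 (adjusted p 1.0e-04 in edgeR, SE 0.111). It did not pass after siLARP4A in PC3 (0.03) or siLARP4B in MG63 (0.10), where the groups overlapped.

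The Sprouty genes, which inhibit signalling between receptor tyrosine kinases and RAF, did not move as a group. SPRY1 (chromosome 4, 123396795 to 123403754, plus strand) passed in 1 of the 4 comparisons: it fell after siLARP4B in PC3, from 14.8 and 14.5 FPKM to 10.1 and 9.14, a log2 difference of -0.61 (adjusted p 8.3e-06 in edgeR, SE 0.0892). It did not pass after siLARP4A in PC3 (-0.07), where the libraries had 13.7 and 13.9 FPKM. In MG63 it did not pass after siLARP4A (0.15) or siLARP4B (-0.14), with 8.97 and 10.6 FPKM with siControl, 11.7 and 10.1 with siLARP4A and 9.49 and 8.003 with siLARP4B.

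SPRY2 (chromosome 13, 80335977 to 80341126, minus strand) rose after siLARP4A in PC3 and fell in the other 3 comparisons. Its PC3 libraries had 22.9 and 23.1 FPKM with siControl, 26.7 and 29.7 with siLARP4A, and 18.7 and 19.2 with siLARP4B, with siControl between the knockdown groups. In MG63 it had 15.3 and 15.4 FPKM with siControl, 13.0 and 11.1 with siLARP4A, and 12.6 and 12.1 with siLARP4B, with siControl highest. The PC3 differences were 0.31 (adjusted p 0.0013 in edgeR, SE 0.0693) and -0.28 (adjusted p 0.0028 in edgeR, SE 0.0729), and the MG63 differences -0.35 (adjusted p 0.0022 in edgeR, SE 0.0803) and -0.30 (adjusted p 0.0054 in edgeR, SE 0.0793). Without MG63 siLARP4A replicate 2 the MG63 siLARP4A value was -0.23 (edgeR adjusted p 0.10). Over the 4 SPRY2 models in the tables, the log2 ratio of mean FPKM ranged from 0.29 to 0.33 for siLARP4A in PC3 and from -0.37 to -0.35 for siLARP4A in MG63.

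SPRY4 (chromosome 5, 142310435 to 142325021, minus strand; the noncoding SPRY4-IT1 lies within it on the same strand, with 69 fragments over all libraries against 15580) rose after siLARP4A in both lines. It went from 12.5 and 11.8 FPKM to 16.5 and 15.7 in PC3, by 0.43 on the log2 scale (adjusted p 1.2e-05 in edgeR, SE 0.0626). In MG63 it went from 11.02 and 12.2 to 16.9 and 16.3, by 0.51 (adjusted p 2.5e-06 in edgeR, SE 0.0635). After siLARP4B it had 12.7 and 13.3 FPKM in PC3 and 12.9 and 12.6 in MG63 and did not pass (0.09, edgeR adjusted p 0.26, and 0.15, 0.068). The MG63 siLARP4B value passed under 5 of the alternatives, at 0.16 to 0.23, among them a fit of the 6 MG63 libraries alone.

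SPRED1 (chromosome 15, 38252836 to 38357249, plus strand) fell after siLARP4B in both lines. In PC3 it had 11.99 and 11.5 FPKM with siControl, 9.74 and 8.62 with siLARP4A, and 7.42 and 7.28 with siLARP4B, a stepwise order without overlap. In MG63 it had 4.34 and 4.54, 4.38 and 3.98, and 3.54 and 3.53 FPKM, with the siLARP4B libraries alone below the others. The siLARP4B differences were -0.68 in PC3 (adjusted p 3.3e-08 in edgeR, SE 0.0672), to 62.5% of siControl, and -0.31 in MG63 (adjusted p 0.0040 in edgeR, SE 0.0794). After siLARP4A it fell in PC3 (-0.33, adjusted p 0.00032 in edgeR, SE 0.0649) and did not pass in MG63 (-0.09, edgeR adjusted p 0.45).

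The 2 siRNAs were compared directly within each line, since passing against siControl under one and not the other does not show a difference. In PC3, 7 of the 10 genes were higher with siLARP4A than with siLARP4B and none was lower in edgeR, also at an unadjusted p under 0.05, or in DESeq2. Of all genes tested 54.1% passed, 26.3% higher and 27.8% lower. SPRY2 differed most (0.59, SE 0.0709, edgeR adjusted p 3.2e-07), followed by SPRY1 (0.54), DUSP16 (0.49), SPRED1 (0.35), DUSP1 and SPRY4 (0.34 each) and DUSP4 (0.29). DUSP5, DUSP6 and DUSP10 did not pass, at -0.07, -0.07 and -0.19. With limma on log2(FPKM + 0.1), DUSP4 was 0.26 (adjusted p 0.098). In MG63, 5 genes were higher with siLARP4A (DUSP1, DUSP16, SPRY1, SPRY4 and SPRED1) and 2 lower (DUSP5 and DUSP6), against 43.8% of all genes tested, 21.5% higher and 22.2% lower. DUSP1 differed most in MG63 (0.67, SE 0.0710, edgeR adjusted p 1.0e-07), then DUSP16 (0.56), DUSP6 (-0.46), DUSP5 (-0.40) and SPRY4 (0.36). Without MG63 siLARP4B replicate 2 the MG63 counts were 3 higher and 1 lower: SPRY1 (0.18), SPRED1 (0.22) and DUSP5 (-0.33) missed the threshold, with edgeR adjusted p of 0.17, 0.078 and 0.053. DUSP5 was -0.26 (edgeR adjusted p 0.12) without MG63 siLARP4A replicate 2, and SPRY1 (0.20, edgeR adjusted p 0.19) and SPRED1 (0.16, 0.22) missed the threshold without MG63 siLARP4A replicate 1. SPRED1 also did so without MG63 siLARP4B replicate 1 (edgeR adjusted p 0.074) and with DESeq2 (adjusted p 0.061).

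Whether a response differed between PC3 and MG63 was tested by the interaction term, which shares no library between the lines. For siLARP4A, 4 of the 10 genes passed, where 11.2% of all genes tested did, 5.75% with a higher and 5.45% with a lower response in PC3. SPRY2 had the smallest p, with a response higher in PC3 than in MG63 by 0.66 (adjusted p 0.00025 in edgeR, SE 0.106), and it passed under all alternatives, at 0.50 to 0.73. DUSP5 (0.61, edgeR adjusted p 0.0031) and DUSP4 (0.83, edgeR adjusted p 0.0042) were also higher in PC3, and DUSP16 was lower (-0.63, edgeR adjusted p 0.0067). Higher means a more positive log2 difference, so DUSP4, which fell in both lines, fell less in PC3. Without MG63 siLARP4A replicate 2, 2 genes passed: DUSP5 became 0.44 (edgeR adjusted p 0.076) and DUSP4 0.53 (0.19). DUSP5 also missed the threshold without MG63 siControl replicate 2 (0.47, edgeR adjusted p 0.076) and DUSP4 without MG63 siControl replicate 1 (0.71, 0.051). For siLARP4B, 4 genes passed, against 26.8% of all genes, 12.4% higher and 14.4% lower in PC3: DUSP4 (0.83, SE 0.189, edgeR adjusted p 0.0023), DUSP16 (-0.56, edgeR adjusted p 0.010), SPRY1 (-0.46, edgeR adjusted p 0.010) and SPRED1 (-0.37, edgeR adjusted p 0.011). SPRY1 had an edgeR adjusted p of 0.055 without PC3 siLARP4B replicate 2 and a limma adjusted p of 0.052 on log2(FPKM + 0.1). The SPRED1 difference for siLARP4A passed only without PC3 siLARP4A replicate 1 (-0.34, edgeR adjusted p 0.021, against -0.24 and 0.14 with all libraries). On log2(FPKM + 0.1) limma gave DUSP4 differences of 0.66 for siLARP4A and 0.62 for siLARP4B, with adjusted p of 0.042 and 0.026. On log2(FPKM + 1), where the added 1 exceeds every DUSP4 level in MG63 and so shrinks its change there, they were 0.14 and -0.04, with limma adjusted p of 0.33 and 0.77. For DUSP1, DUSP6, DUSP10 and SPRY4 neither difference between lines passed; DUSP10 had the widest errors, at -0.31 (SE 0.264) and 0.16 (SE 0.265), and for siLARP4B DUSP1 (0.26) passed under 4 of the alternatives and DUSP6 (-0.21) under 5.

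**Figure D3:**
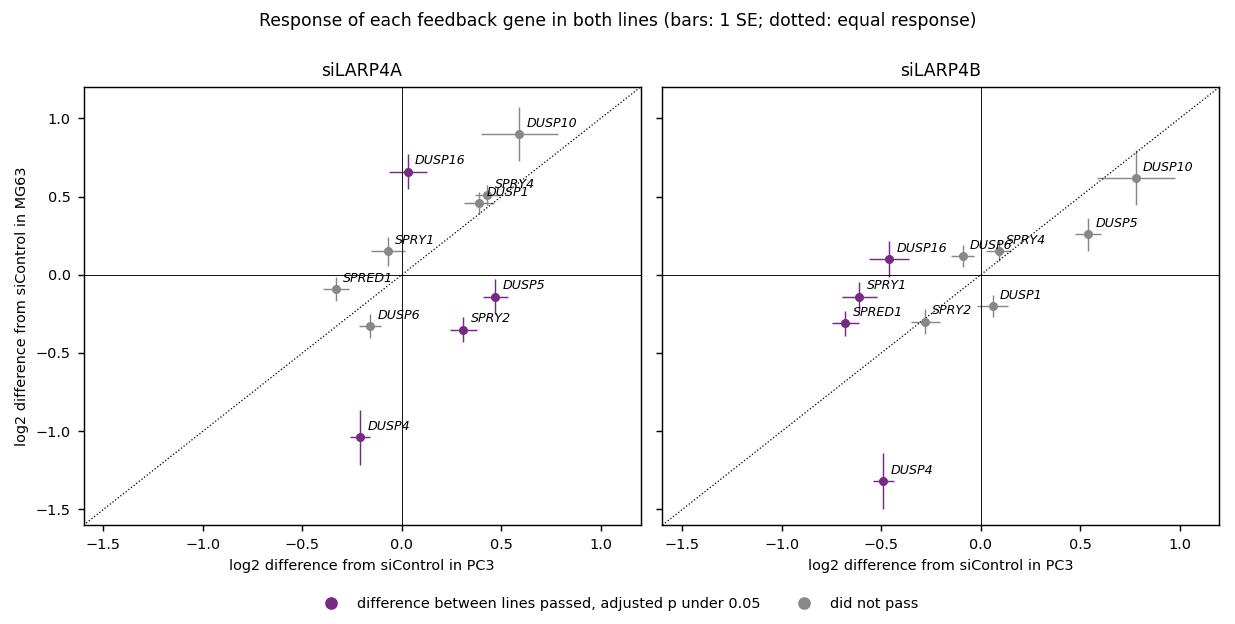
Response of the 10 genes in PC3 (horizontal axis) and MG63 (vertical axis), as log2 difference from siControl with bars of 1 SE, for each siRNA; the dotted line marks equal responses and purple marks genes whose difference between lines passed an adjusted p of 0.05. SPRY2 and DUSP5 lie in the lower right for siLARP4A, with a positive value in PC3 (0.31 and 0.47) and a negative one in MG63 (-0.35 and -0.14).

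Some genes varied together across libraries within a line. After the mean of the line was taken from each log2 value, DUSP1 and SPRY4 had a Pearson r of 0.85 over the 12 libraries, and DUSP1 and DUSP6 of -0.89. DUSP1 and DUSP16 had an r of 0.75, SPRY1 and SPRED1 of 0.82, and DUSP4 and DUSP10 of -0.82. For DUSP16 and SPRY1 it was 0.75, and for DUSP5 and SPRED1 -0.78. All other pairs of the genes lay between -0.7 and 0.72. These values describe 12 libraries that share 6 group means, and no p is given. The r values of DUSP4, here and below, lean on the MG63 libraries. Around the mean of the line DUSP4 ran from -0.556 to 0.856 in MG63, on 31 to 80 fragments, and from -0.275 to 0.25 in PC3. DUSP1 and SPRY4 were above the mean of their line in all 4 siLARP4A libraries and below it in the other 8, and DUSP6 was below it in all 4. For the genes with the smallest adjusted p against siControl, SPRED1 and DUSP4, the most similar patterns among 8406 other genes with a mean of at least 5 FPKM were those of ME1, SEC63 and SP3 for SPRED1 (r of 0.977, 0.974 and 0.971) and of ZMYM3, COPG2 and COG4 for DUSP4 (0.942, 0.925 and 0.915).

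**Figure D4:**
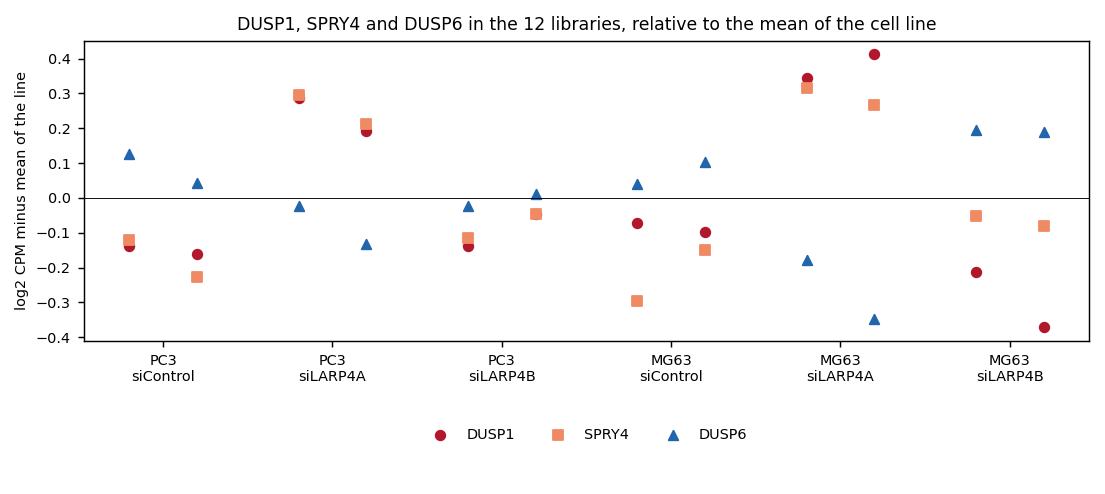
Log2 CPM (counts scaled to library size) of DUSP1, SPRY4 and DUSP6 minus the mean of the cell line (vertical axis), in each of the 12 libraries in 6 groups (horizontal axis). In the siLARP4A libraries of both lines DUSP1 and SPRY4 lie above 0, between 0.193 and 0.412, while DUSP6 lies between -0.348 and -0.023.

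Of the remaining phosphatases, Sproutys and SPREDs, DUSP8 did not reach the count filter and SPRY3 was left out as a symbol at more than 1 locus, which left 5. In PC3 after siLARP4A, DUSP2, DUSP7 and DUSP9 rose and SPRED2 fell, and after siLARP4B DUSP2 and SPRED2 rose and DUSP9 fell. In MG63 after siLARP4A, DUSP2 and DUSP9 rose, and after siLARP4B DUSP2, DUSP7 and SPRED2 rose while DUSP9 and SPRED3 fell. The numbers that passed were thus 4, 3, 2 and 5 in the order given, where 36.4%, 45.7%, 26.8% and 34.9% of all genes tested did. The median log2 difference of the 5 genes was 0.34, 0.17, 0.08 and 0.18. DUSP2, a nuclear phosphatase of ERK and p38, thus rose in all 4 comparisons. Its level was 7.53 and 7.79 FPKM in PC3 with siControl, 15.6 and 18.5 with siLARP4A, and 11.3 and 10.8 with siLARP4B, with log2 rises of 1.17 (adjusted p 8.4e-09 in edgeR, SE 0.101) and 0.53. In MG63 it had 3.15 and 2.55 FPKM with siControl, 4.28 and 4.03 with siLARP4A, and 4.0 and 3.87 with siLARP4B, with rises of 0.55 and 0.49. Both MG63 calls were lost without MG63 siControl replicate 2 (0.40 and 0.34, edgeR adjusted p 0.14 and 0.19), the first also without MG63 siLARP4A replicate 1 (0.067) and the other without MG63 siLARP4B replicate 1 (0.072). DUSP9, a cytoplasmic ERK phosphatase, rose after siLARP4A (0.64 in PC3 and 0.53 in MG63) and fell after siLARP4B (-0.83 and -0.40). In MG63 its rise had an edgeR adjusted p of 0.050 without MG63 siControl replicate 2, and its fall missed the threshold with DESeq2 (adjusted p 0.086) and without MG63 siControl replicate 1 (0.21) or MG63 siLARP4B replicate 2 (0.19). The SPRED2 rise of 0.17 in PC3 was lost under 14 of the alternatives. In MG63 the SPRED2 rise of 0.18 and the SPRED3 fall of -0.44 after siLARP4B were lost under 5 and 2 of them, among them the fits without MG63 siControl replicate 1 or MG63 siLARP4B replicate 2 (SPRED2, 0.14 and 0.13) and without MG63 siControl replicate 2 or MG63 siLARP4B replicate 1 (SPRED3, -0.37 and -0.40).

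Upstream, of 13 receptor tyrosine kinases, 4 rose and 1 fell after siLARP4A in PC3, 3 and 3 after siLARP4B in PC3, 5 and 3 after siLARP4A in MG63, and 2 and 5 after siLARP4B in MG63. The share of all genes that passed was 36.4%, 45.7%, 26.8% and 34.9% in the same comparisons. In PC3 the receptors passed at about that share. Their median log2 difference was 0.29, -0.03, 0.11 and -0.13, beside 0.03, 0.04, 0 and 0 for all genes. In PC3 these medians include receptors under 1 FPKM. The receptor FGFR1 rose after siLARP4A in PC3 by 0.84 (edgeR adjusted p 4.4e-11) and after siLARP4B by 0.32 in PC3 and 0.35 in MG63. The ephrin receptor EPHA2 fell after siLARP4B in PC3 (-0.45) and MG63 (-0.52) and rose after siLARP4A in MG63 (0.42). Of 13 adaptors, exchange factors and RAS regulators tested, 9 rose and 1 fell after siLARP4A in PC3, with a median of 0.31, and 1 rose and 7 fell after siLARP4B, with a median of -0.23; the medians of all genes were 0.03 and 0.04, and 36.4% and 45.7% of them passed. In MG63 the counts were 7 and 1 after siLARP4A (median 0.20) and 3 and 2 after siLARP4B (0.01), where 26.8% and 34.9% of all genes passed. PTPN11, the phosphatase SHP2 that relays receptor signals to RAS, was the 1 that fell after siLARP4A in each line. It went from 47.7 and 48.7 FPKM to 27.0 and 22.9 in PC3, a log2 difference of -0.93 (adjusted p 1.2e-10 in edgeR, SE 0.0612), and from 30.2 and 30.8 to 20.1 and 22 in MG63, a difference of -0.54 (adjusted p 1.2e-06 in edgeR, SE 0.0630). It also fell after siLARP4B in PC3 (-0.43). CBLB, a ubiquitin ligase that turns receptors over, rose after siLARP4A by 0.84 in PC3 and 1.14 in MG63 and fell after siLARP4B in PC3 (-0.39).

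Of the 8 RAF, MEK and ERK kinases and scaffolds, 5, 4, 4 and 1 passed after siLARP4A in PC3, siLARP4B in PC3, siLARP4A in MG63 and siLARP4B in MG63, where 36.4%, 45.7%, 26.8% and 34.9% of all genes did. The median log2 difference of this list was 0.12, -0.02, 0.02 and 0 in the same order. MAP2K1, which encodes the ERK kinase MEK1, was the gene of this list that fell in all 4 comparisons. It had 35.9 and 35.1 FPKM with siControl in PC3, 29.2 and 28.8 with siLARP4A, and 29.9 and 29.0 with siLARP4B. In MG63 it had 42.8 and 43.6 with siControl, 30.6 and 30.5 with siLARP4A, and 39.0 and 34.7 with siLARP4B. The differences were -0.27, -0.27, -0.50 and -0.21, with edgeR adjusted p of 0.00069, 0.00058, 1.0e-06 and 0.0059. The last became -0.13 (edgeR adjusted p 0.14) without MG63 siLARP4B replicate 2 and -0.20 (0.054) without MG63 siControl replicate 2. The scaffold KSR1 rose after siLARP4A in both lines (0.72 in PC3 and 0.45 in MG63). The MG63 rise was 0.36 (edgeR adjusted p 0.10) without MG63 siLARP4A replicate 2 and missed the threshold with limma on log2(FPKM + 0.1) (adjusted p 0.052). A rise of KSR1 after siLARP4B in PC3 (0.38) was lost under 15 of the alternatives and was 0.13 without PC3 siLARP4B replicate 1. Of 11 JNK and p38 kinases, 4 rose and 2 fell after siLARP4A in PC3, 4 and 3 after siLARP4B in PC3, 1 and 2 after siLARP4A in MG63, and 1 and 5 after siLARP4B in MG63. Against the same shares of all genes (36.4%, 45.7%, 26.8% and 34.9%), the count for siLARP4A in MG63 is at the background. The median log2 difference of these kinases was 0.18, 0.03, 0.06 and -0.25. The JNK kinase MAP2K4 and the JNK gene MAPK9 fell after siLARP4B in both lines, with differences of -1.10 and -0.81 in PC3 and of -0.46 and -0.38 in MG63.

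Other transcripts that rise with ERK activity did not move in 1 direction either. Of 17 tested, 7 rose and 2 fell after siLARP4A in PC3, 1 rose and 7 fell after siLARP4B in PC3, 5 and 1 after siLARP4A in MG63, and 3 and 4 after siLARP4B in MG63. Their medians were 0.04, -0.07, 0.08 and 0, beside 0.03, 0.04, 0 and 0 for all genes, of which 36.4%, 45.7%, 26.8% and 34.9% passed; the count for siLARP4B in PC3 is near that background. EGR1, an early response transcription factor, fell in PC3 after siLARP4A (-1.18, edgeR adjusted p 2.8e-05) and siLARP4B (-0.99), fell in MG63 after siLARP4B (-0.79) and rose there after siLARP4A (0.84, edgeR adjusted p 2.4e-05). FOSL1, an AP-1 subunit, fell in PC3 after siLARP4B (-0.54, edgeR adjusted p 8.1e-10) and in MG63 after siLARP4B (-0.26). Its fall in PC3 after siLARP4A (-0.14) was lost without PC3 siControl replicate 1 (edgeR adjusted p 0.079), without PC3 siLARP4A replicate 1 (0.063) and with the deduplicated table of PC3 siControl replicate 2 (0.077). HBEGF, which encodes a ligand of the EGF receptor, rose in PC3 after siLARP4A (0.53) and siLARP4B (0.73) and in MG63 after siLARP4A (0.91, edgeR adjusted p 2.2e-08). The cyclin gene CCND1 rose after siLARP4A in PC3 (0.44, edgeR adjusted p 1.8e-08).

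**Figure D5:**
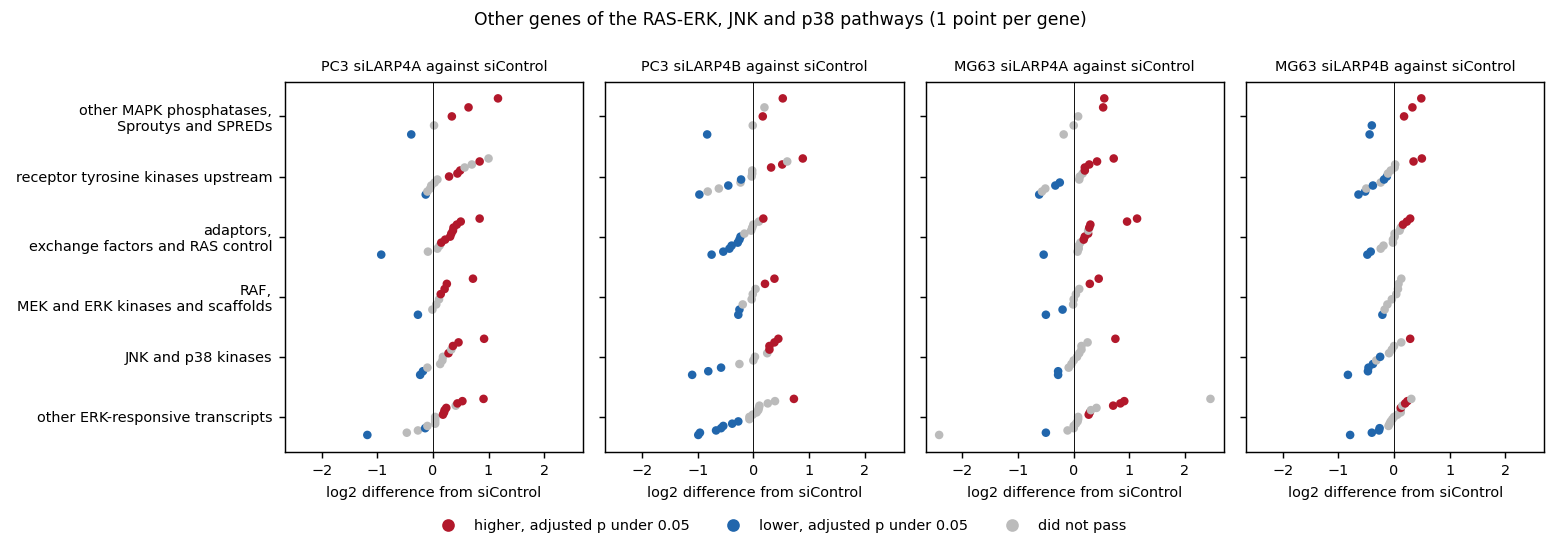
Log2 difference from siControl (horizontal axis) of the other pathway genes in 6 lists (vertical axis), 1 point per gene, in the 4 comparisons; red and blue mark genes higher and lower at an adjusted p under 0.05 and grey those that did not pass. In PC3 the adaptor and RAS list lies mostly right of 0 after siLARP4A (9 higher, 1 lower) and left of it after siLARP4B (1 higher, 7 lower).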

How the data were processed

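Poly(A) RNA of 12 libraries, in 6 groups of 2, was sequenced. The authors deposited 1 table per library with 86394 transcript models. Its columns, per the file headers, are counts, FPM and FPKM. The deposited counts are whole fragments, the deposited FPM signal is the count scaled by a single total per library, and the deposited FPKM is FPM divided by model length in kilobases. FastQC, HISAT2, featureCounts, edgeR and the build hg38 are named in the submitters' processing notes, without versions or settings; the handling of strand is not given in the sources used here. Models of a gene overlap, and fragments in their common exons enter the count of every such model.

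Models on chromosomes 1 to 22, X and Y were kept, the 1810 symbols at more than 1 locus, alternate contigs included, were left out, and each of 26468 symbols was represented by its most abundant model, by fragments summed over all libraries. The test was that of edgeR 4.0.16 under R 4.3.3 (quasi-likelihood F-test, TMM scaling, default expression filter, 1 fit of 12 libraries with a mean per group), two-sided, on 15686 genes. Benjamini-Hochberg adjustment was made within each of 9 comparisons, and an adjusted p under 0.05 was called. Named genes are the 10 members and both targets, and in each pathway list up to 3 of the smallest adjusted p per comparison. The members and lists were chosen with earlier results of these data known. Alternatives were DESeq2 1.42.0, upper-quartile scaling, no filter, a mean FPKM of at least 5, limma 3.58.1 on log2(FPKM + 1) or log2(FPKM + 0.1), a replicate block, a fit of fewer libraries, the longest model, the deduplicated table of PC3 siControl replicate 2, and leaving out each library. The libraries of a group had a Pearson r of 0.9896 to 0.9917 on log2 values and differed by more than counting error. The chi-square per degree of freedom was 6.32 for PC3 siLARP4A, 5.04 for MG63 siLARP4B and 1.64 to 2.58 for the other groups. The fit takes 1 spread per gene over all 6 groups and so does not follow this difference. The labels name no batch.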

Additional observations from a re-analysis of the deposited data

Results flagged for a closer look

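By the interaction test in edgeR, the response of 4 of the 10 genes differed between PC3 and MG63 for each siRNA. Of all genes tested, 11.2% did so for siLARP4A and 26.8% for siLARP4B. For siLARP4A the DUSP4 call was lost under 3 of the alternatives and the DUSP5 call under 2. Fits that left out a library were among them for both genes. The SPRY1 call for siLARP4B was lost under 2. The log2 difference from siControl after siLARP4A was higher in PC3 than in MG63 for DUSP4 (0.83), DUSP5 (0.61) and SPRY2 (0.66), and lower for DUSP16 (-0.63). After siLARP4B it was higher in PC3 for DUSP4 (0.83) and lower for DUSP16 (-0.56), SPRY1 (-0.46) and SPRED1 (-0.37). Higher does not mean stronger here. DUSP4 fell in both lines, and less in PC3 (-0.21 against -1.04 after siLARP4A, -0.49 against -1.32 after siLARP4B). SPRED1 fell more in PC3 after siLARP4B (-0.68 against -0.31). SPRY2 is the gene among these that passed in opposite directions in each line after siLARP4A, at 0.31 in PC3 and -0.35 in MG63.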

How the results depend on the processing

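The count of the 10 genes past the threshold stayed within 1.5 times its reported value in each of the 9 comparisons under all alternatives that keep all libraries. Leaving out 1 library moved it in 3: between 3 and 6 for siLARP4B in MG63 (5 as reported, 3 without MG63 siControl replicate 1), between 4 and 7 for siLARP4A against siLARP4B in MG63 (7 as reported, 4 without MG63 siLARP4B replicate 2), and between 2 and 5 for the difference between lines with siLARP4A (4 as reported, 2 without MG63 siLARP4A replicate 2). One called value changed sign, DUSP4 in the difference between lines with siLARP4B, from 0.83 to -0.04 with limma and a pseudocount of 1 FPKM, which exceeds its level in MG63. No pairing of the libraries by replicate number was seen: deviations of same-numbered libraries correlated at -0.023 to 0.046 within a line. All genes tested entered with equal weight, those with few fragments included, so a weak pairing could go unseen. The replicate block left the counts of the 10 genes at 8, 7, 7 and 5 against siControl, as without it, and changed no call. Of the values of the 10 genes recomputed under an alternative, 34 lost their call, 23 gained a call and 1904 kept their call or stayed without a call. Among the named pathway genes 51 lost it, 27 gained a call and 1402 stayed as they were, as did all 396 values of the targeted genes. A value without a call under either setting was counted as kept even where its sign changed. Over the alternatives other than the FPKM minimum, the adaptor and RAS list had 6 to 9 genes higher after siLARP4A in PC3 and 5 to 8 lower after siLARP4B. Over all genes, the split of calls for the difference between lines moved with the setting. For siLARP4A it went from 902 higher and 855 lower to 704 and 1276 without a filter. For siLARP4B it went from 1951 and 2251 to 2354 and 1792 with upper-quartile scaling. The split against siControl in PC3 also turned without a filter. It went from 3061 higher and 2655 lower to 2690 and 3003 for siLARP4A. For siLARP4B it went from 3892 and 3271 to 3287 and 3743. The cause of these shifts was not tested. Fewest fragments stand behind DUSP10 (47 to 140 per library) and DUSP4 in MG63 (31 to 80).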
